A study of Homo sapiens with 11 samples.

Results

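The genes described here are those named ZNF plus a number, a symbol given to human zinc finger proteins. Their peaks were taken from 4 tables of eCLIP peaks of the RNA-binding protein ZFP36L2 by matching the gene name of each peak. The match itself used no measured value. The tables list only peaks enriched over input, however, so a gene without such a peak could not enter. This group of genes was chosen with earlier results of these data known. Peaks that name several genes were set aside, and 2 further symbols of the pattern were not analysed here. The rule found 169 genes with 1246 peaks, among 6881 gene names and 67083 peaks in all. The tables hold 162 protein-coding ZNF genes, 5 long noncoding RNAs named after a ZNF gene and 2 transcribed pseudogenes. All 169 symbols matched the RefSeq table of GRCh38.p14, ZNF720 as an older symbol of KRABD5.

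eCLIP crosslinks proteins to RNA with UV light in living cells, immunoprecipitates 1 protein and sequences the RNA fragments bound to it. The study used MOLM13 and THP1, established human acute myeloid leukaemia lines grown in RPMI-1640 medium with serum, with no further treatment named in the labels. For each line, 2 libraries were made after pulldown of ZFP36L2 and 2 after pulldown with control IgG, and there were 2 inputs for MOLM13 and 1 for THP1. The replicates are libraries of 1 line each, nothing in the labels says that they came from separate cultures, and the spread between them may be technical. Each of the 4 immunoprecipitates has its own peak table over input, with the authors' log2 fold and p, holding only peaks with a log2 fold and a -log10 p of at least 3.

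ZFP36L2 belongs to a small family of proteins with CCCH zinc fingers that bind AU-rich elements in the 3′ UTRs of mRNAs and promote their deadenylation and decay. The ZNF symbol is shared by proteins with C2H2 zinc fingers, which mostly bind DNA. The largest group among them carries a KRAB domain, recruits the co-repressor TRIM28 and silences transposable elements and other sites, and many of its genes lie in tandem arrays on chromosome 19. Other ZNF proteins have no KRAB domain and act as transcription factors, as partners of chromatin complexes or in RNA and ribosome biology. Members of the tandem arrays resemble each other in sequence. The sources used here do not say how reads that map to several copies were counted, so the values of single genes in these arrays are uncertain.

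MOLM13 replicates 1 and 2 held 14432 and 14425 peaks, and those of THP1 held 19325 and 18901, of which 29, 29, 19 and 30 had no value over IgG. The total of clusters, which are all tested stretches whether enriched or not, was 140287 and 182486 in MOLM13, with THP1 at 153162 and 143910. Over all clusters the median log2 fold over IgG was lowest in MOLM13 replicate 2, at -0.60, against 0.28, 0.0019 and 0.38 in the other libraries. Read depth is unknown. Of 8 monocytic marker genes, 2 had clusters in both MOLM13 libraries and 4 in both THP1 libraries, and of 5 markers of other blood cell types 0 had clusters in both replicates of either line. These files show bound RNA and not expression, so a low count of peaks on a gene and a low level of its RNA cannot be told apart.

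ZNF genes took a small share of all peaks, and a larger one in THP1 than in MOLM13. The MOLM13 replicates had 248 and 228 ZNF peaks (1.72% and 1.58% of all peaks), and the THP1 replicates had 392 and 378 (2.03% and 2.00%). The replicates of the lines did not overlap in this share. The mean of MOLM13 was 1.65% ± 0.097 (SD, n = 2) and that of THP1 was 2.01% ± 0.020 (SD, n = 2), with p = 0.333 in an exact two-sided permutation test, the smallest that 2 libraries against 2 can give. The peaks fell on 103 and 90 ZNF genes in MOLM13, and THP1 had peaks on 153 and 145.

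Only 1 ZNF peak lay whole inside a stretch of reference sequence at hand, and it is shown as an example of what such a peak covers. It belongs to ZNF169 and was found in THP1 replicate 2 at chr9:94259484-94259542 on the plus strand, in the proximal intron, which is the part of an intron near a splice site. The sequence was read from the RefSeq promoter window of the neighbouring gene LINC02603 on the other strand (GRCh38.p14), turned to the strand of the peak:
ZNF169: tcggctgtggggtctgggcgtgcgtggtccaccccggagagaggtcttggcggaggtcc
The ATTTA core of AU-rich elements occurred 0 times in it on the strand of the peak and 0 times on the other, so nothing is capitalised. Of 35116 promoter windows cut to the same 59 bases, 5.62% held ATTTA on the given strand and 10.6% on either strand. The GC content of the peak was 71.2%, against a median of 54.2% in those windows. Peaks in this proximal intron of ZNF169 were found in all 4 libraries, and the log2 fold over input of the peak shown was 3.13 while its log2 fold over IgG was 1.13. The letters of this window say nothing about other ZNF peaks.

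Most ZNF peaks lay in introns, and fewer than among other genes lay in 3′ UTRs, the region for which this protein family is best known. The share of ZNF peaks in 3′ UTRs was 12.9% and 18.4% for MOLM13, and for THP1 it was 13% and 15.9%. Peaks of all other genes had 20.3%, 22.9%, 16.2% and 16.7% in the same order. The ZNF share was lower in 4 of 4 libraries, by 3.97 percentage points on average (SD 2.74, n = 4 libraries). An exact two-sided sign-flip test over the 4 libraries gave p = 0.125, the smallest it can give, and 0.25 after Benjamini-Hochberg adjustment over 4 measures. With only peaks of a log2 fold of at least 4 the difference was -2.13 percentage points, lower in 3 of 4 libraries. The share of other genes lay inside the 95% Wilson interval of the ZNF share, which covers counting error only, in all libraries but MOLM13 replicate 1, where that interval was 9.29% to 17.6%.

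Intron peaks made up the larger share among ZNF genes in every library. Of ZNF peaks, 82.7% and 78.5% were intronic in MOLM13, and 83.4% and 80.7% were so in THP1, against 72.5%, 69.4%, 78.0% and 76.8% among other genes. Peaks in coding sequence were rare, with 5, 3, 4 and 7 ZNF peaks in MOLM13 replicates 1 and 2 and THP1 replicates 1 and 2. They made 2.02%, 1.32%, 1.02% and 1.85% of ZNF peaks and 3.70%, 4.06%, 3.08% and 3.18% of other peaks. The coding exons of these genes hold the long arrays of finger repeats, and few peaks fell there.

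**Figure D1:**
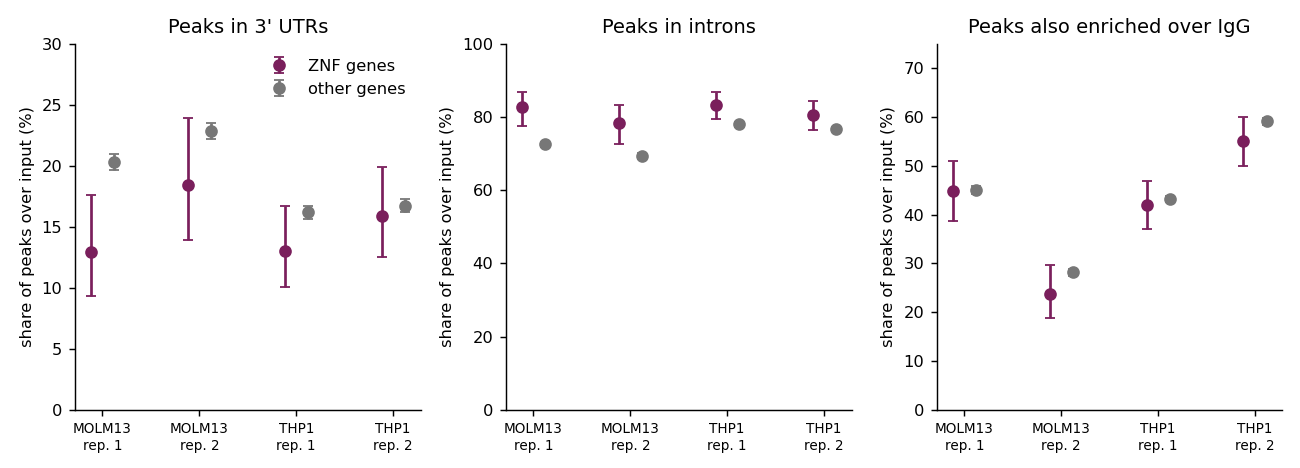
Share of peaks over input (%, linear axis) in 3′ UTRs, in introns and also enriched over IgG, for ZNF genes (purple) and all other genes (grey) in each of the 4 libraries. Points are shares and bars are 95% Wilson intervals for counting error, so that the ZNF point lies below the grey one for 3′ UTRs and above it for introns in 4 of 4 libraries.

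The authors' fold of ZNF peaks did not differ from that of other peaks beyond the spread between libraries. The median log2 fold over input of ZNF peaks was 4.48 and 4.25 for MOLM13 and, for THP1, 4.42 and 4.38, and that of other peaks was 4.38, 4.33, 4.51 and 4.47. The mean difference was -0.041 (SD 0.090, n = 4), higher in 1 library and lower in 3, with p = 0.625 in the exact sign-flip test. With only peaks of a log2 fold of at least 4 it was -0.15, lower in 4 of 4 libraries. By region the direction differed. In introns the ZNF medians were 4.54, 4.31, 4.48 and 4.42, against 4.57, 4.48, 4.65 and 4.63 for other genes. In 3′ UTRs they were 4.21, 4.13, 4.05 and 4.23, against 3.97, 4.04, 4.05 and 4.02. The medians by region were not tested. Peaks of very high fold had the lower share among ZNF genes in 4 of 4 libraries, without a test: 11.3%, 10.1%, 14.0% and 14.8% of ZNF peaks reached a log2 fold of 6, against 16.1%, 14.1%, 17.3% and 17.8% of other peaks. Near the lower limit of the tables, the lowest ZNF peaks stood at log2 folds of 3.01, 3.0, 3.04 and 3.02, and weaker peaks over input are not listed.

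The IgG control gave a further readout at the same sites. A peak counted as enriched over IgG where its log2 fold and -log10 p over IgG were both at least 3. This held for 44.8% of ZNF peaks in MOLM13 replicate 1 against 45% of other peaks, and for 23.8% against 28.2% in MOLM13 replicate 2. In THP1 it held for 41.9% against 43.2% in replicate 1 and for 55.0% against 59.2% in replicate 2. The ZNF share was lower in 4 of 4 libraries, by 2.51 percentage points on average (SD 2.09, n = 4; exact sign-flip p = 0.125, adjusted 0.25). With peaks of a log2 fold over input of at least 4 the difference was -0.89, lower in 3 of 4 libraries, and with a log2 fold over IgG of at least 1 it was -5.67. MOLM13 replicate 2 had the lowest share for ZNF and other peaks alike. In the 3′ UTR, 56.3%, 33.3%, 56.9% and 73.3% of ZNF peaks were enriched over IgG in MOLM13 replicates 1 and 2 and THP1 replicates 1 and 2, against 59.0%, 49.95%, 54.5% and 64.9% of other peaks there. In introns the ZNF shares were 44.4%, 21.8%, 40.1% and 52.1%, against 40.9%, 20.5%, 41.0% and 58.9%, so that within a region the direction differed between libraries. Among ZNF genes, 24 had at least 1 peak enriched over both input and IgG in all 4 libraries, 14.2% of the 169, against 21.7% of other genes with peaks.

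Most ZNF peaks recurred in the other replicate, that is, they overlapped a peak there by 1 base or more on their strand. In MOLM13 this held for 76.6% of the ZNF peaks of replicate 1, against 78.4% of other peaks, and for 86.4% of those of replicate 2 against 83.9%. In THP1 the shares were 81.6% against 81.8% and 85.2% against 85.1%. The mean difference was 0.16 percentage points (SD 1.79, n = 4; higher in 2 libraries and lower in 2; exact sign-flip p = 0.875), and with peaks of a log2 fold of at least 4 it was -2.84, lower in 4 of 4 libraries. Over such pairs of peaks the log2 fold of replicate 1 minus that of replicate 2 had an SD of 0.90 in MOLM13 (190 pairs) and 0.80 in THP1 (320 pairs). Both THP1 replicates may have been compared with the same input, which can raise their overlap.

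A target of a line is here a gene with a peak over input in both replicates of that line. MOLM13 had 84 of the 169 ZNF genes as targets, THP1 had 138, and 81 were targets of both lines. These 81 are 96.4% of the MOLM13 targets and 58.7% of the THP1 targets. For other genes the targets of both lines were 87.4% of those of MOLM13 and 75.8% of those of THP1. Because a gene enters the tables only with a peak, the shares were also taken over all ZNF genes of the RefSeq table that had clusters in both replicates. In MOLM13, 78 of 261 such genes were targets (29.9%), against 37.3% of other genes. In THP1, 122 of 319 were targets (38.2%), against 40.3%. Over all 4 libraries, 75 of 235 were targets of both lines (31.9%), against 35.6%. The differences between these shares were not tested, and the median number of clusters per gene was 5.5 for ZNF genes in each line against 8 and 6.5 for other genes in MOLM13 and THP1.

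Split by the number of clusters, ZNF genes had the higher share of targets in the middle class only, without a test. Of genes with 5 to under 20 clusters, 39.7% of 121 ZNF genes were MOLM13 targets, against 35.7% of others, and 58.5% of 142 were THP1 targets, against 44.4%. Of genes with 1 to under 5 clusters the ZNF shares were lower, at 6.36% against 14.5% in MOLM13 and 9.59% against 14.4% in THP1. With 20 or more clusters they were 76.7% against 77.4% and 80.6% against 86.4%. ZNF genes with peaks were shorter than other genes with peaks, with a median of 33930 against 50278 bases.

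The 3′ UTR peaks fell on 50 of the 169 ZNF genes in at least 1 library. Of these, 17 had them in 1 library, 15 in 2, 5 in 3 and 13 in all 4, counts not given here for other genes. A 3′ UTR peak was reproducible where it overlapped a 3′ UTR peak of the same gene in the other replicate. This held for 15 genes of MOLM13 and 24 of THP1, and 13 genes were common to the lines. These 13 are 86.7% of the MOLM13 genes and 54.2% of the THP1 genes. Among other genes with such a peak 976 were common, 72.0% of those of MOLM13 and 68.5% of those of THP1. Of RefSeq ZNF genes with clusters in both replicates, 14 of 261 (5.36%) had such a peak in MOLM13, against 12.7% of other genes. In THP1 they were 23 of 319 (7.21%), against 12.7%. Reproducible 3′ UTR peaks were thus carried by a smaller share of ZNF genes than of other genes in both lines, a difference that was not tested.

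ZNF764 had the highest reproducible 3′ UTR peak of a ZNF gene in MOLM13, at chr16:30554742-30554806 on the minus strand. MOLM13 replicates 1 and 2 had log2 folds over input of 7.45 and 8.08 for it, rank 16 of 1371 genes with such a peak in that line, and its log2 fold over IgG was 3.46 and 3.27. In THP1 the highest 3′ UTR peak of ZNF764 overlapped 1 end of the MOLM13 peak by a few bases, at chr16:30554800-30554848. It had log2 folds of 5.33 and 6.08 over input. Most bases of the MOLM13 peak carry another label in THP1. There the peaks at chr16:30554741-30554799 and chr16:30554743-30554799, with log2 folds of 7.48 and 7.60, are called distal intron. Peaks on this stretch thus reached 7.45, 8.08, 7.48 and 7.60 in the 4 libraries, and the lower 3′ UTR value of THP1 goes with the label of the peak. Region labels of the same bases can differ between libraries, and the effect of this on the shares by region was not tested.

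ZNF24, a non-KRAB repressor known for acting on VEGFA, ranked first for the 3′ UTR fold over IgG by the lowest of the 4 libraries, among the 13 genes with 3′ UTR peaks in all of them. Its peak lay at chr18:35332682-35332796 on the minus strand in MOLM13 replicate 1, and within a few bases of that in THP1. Its highest 3′ UTR log2 folds over input were 4.94 and 5.44 for MOLM13 and, for THP1, 5.53 and 5.81. Over IgG the highest, which need not be of the same peak, were 4.76, 4.42, 5.03 and 5.80. These highest values were thus past 4 on both scales in all 4 libraries. The MOLM13 replicate 2 peak that overlapped the one named here had 3.77 over IgG.

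ZNF516, a transcription factor known from brown fat, carried several 3′ UTR peaks, with 2 and 5 for MOLM13 and 4 and 6 for THP1. The highest stood at log2 folds of 5.32, 6.25, 5.66 and 5.54 over input and 3.75, 5.25, 4.87 and 5.72 over IgG. ZNF529 had 5.77, 5.88, 6.23 and 5.26 over input, with 3.20, 3.75, 4.98 and 5.26 over IgG, at chr19:36545163-36545238. ZNF121 had 4.77, 5.88, 6.21 and 6.26 over input, with 3.28, 3.82, 4.38 and 5.42 over IgG. For these 3 genes the replicates of the lines overlapped over input for ZNF516 and ZNF529, while for ZNF121 both THP1 values lay above both MOLM13 values. No difference of folds between the lines was tested.

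ZNF217, an oncogene amplified in breast cancer, had 3′ UTR log2 folds of 4.55, 6.01, 4.58 and 4.46 over input. Its fold over IgG ran from 2.34 in MOLM13 replicate 2 to 5.33 in THP1 replicate 1. ZNF652, a co-repressor partner of CBFA2T3, stood at 4.14 and 3.28 in the MOLM13 libraries, and THP1 stood at 6.02 and 5.76, so that its lines did not overlap. ZNF592, a partner of ZMYND8, stood at 4.50, 4.14, 4.81 and 4.08 over input, and above 3 over IgG in 4 of 4 libraries, with 3.27 as the lowest. ZNF175 (4.21, 4.18, 3.76 and 4.84) and ZNF770 (3.89, 4.25, 4.15 and 5.81) also had 3′ UTR peaks in every library.

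A 3′ UTR peak over input was not always one over IgG. Of the 13 genes with 3′ UTR peaks in all 4 libraries, 8 had a highest 3′ UTR log2 fold over IgG of at least 3 in each of them: ZNF24, ZNF516, ZNF121, ZNF592, ZNF764, ZNF652, ZNF175 and ZNF529. These highest values need not be of the same peak. The highest reproducible 3′ UTR peak of ZNF652 in MOLM13 had 3.74 and 1.92 over IgG. ZNF609, the host gene of a well-known circular RNA, was lowest, with 1.87, 1.03, 2.54 and 1.28 over IgG beside 4.44, 3.97, 3.20 and 3.29 over input. In MOLM13, 7 of the 15 reproducible 3′ UTR peaks were enriched over IgG in both replicates (46.7%, against 49.8% among other genes), and in THP1 11 of 24 (45.8%, against 57.5%).

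**Figure D2:**
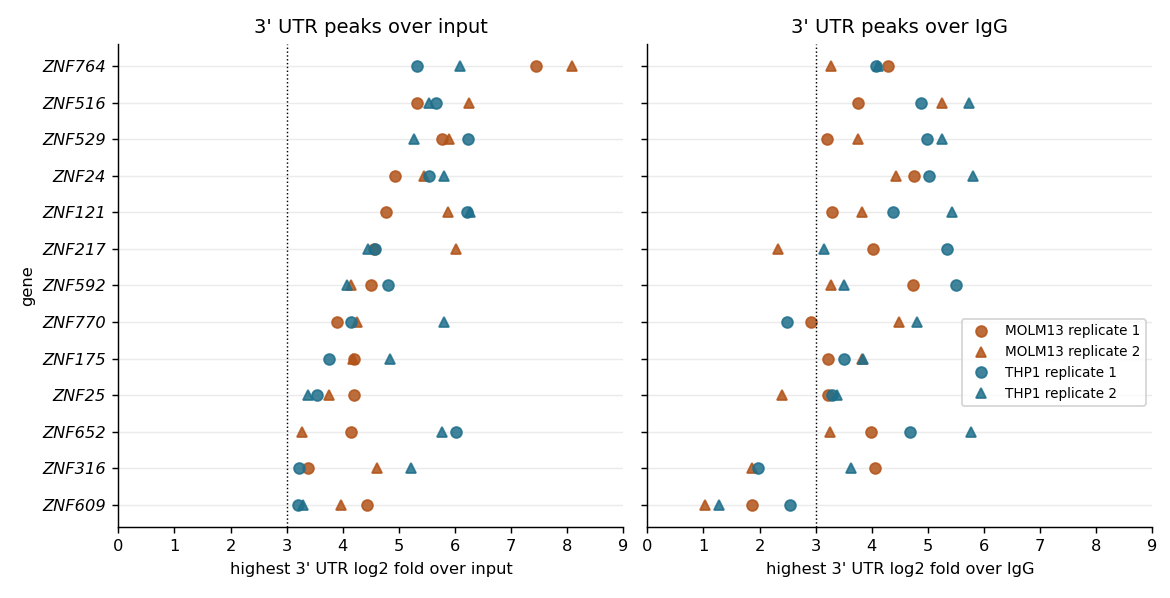
Highest 3′ UTR log2 fold over input (left) and over IgG (right) for the 13 ZNF genes with a 3′ UTR peak over input in all 4 libraries, with brown for MOLM13, blue for THP1, circles for replicate 1 and triangles for replicate 2. The dotted line marks a log2 fold of 3, and ZNF609 lies below it over IgG in all 4 libraries, between 1.03 and 2.54.

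The strongest ZNF peaks of all lay in introns. Ranked by the lowest of the 4 libraries, the first reproducible peak outside 3′ UTRs was that of ZNF592 in a distal intron, at chr15:84781056-84781125 on the plus strand. Its log2 fold over input was 7.80 and 8.34 for MOLM13 and 9.19 and 9.16 for THP1. Over IgG the same peak had 3.65, 2.34, 3.42 and 5.16, so that MOLM13 replicate 2 fell short of 3. A peak of ZNF783 at chr7:149276674-149276693 followed, with 8.69, 8.33, 7.43 and 7.73 over input and at least 3.27 over IgG in every library.

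ZNF629 had the highest single value, 10.05 in THP1 replicate 2, at chr16:30785792-30785876 on the minus strand, with 9.11 and 7.0 in MOLM13, while THP1 replicate 1 had 8.83. Over IgG it stood at 4.43, 3.42, 5.27 and 7.05, above 3 in all 4 libraries. The intron peaks of ZNF44, ZNF248 and ZNF720 (KRABD5) had lowest log2 folds of 6.41, 6.12 and 6.01 over the 4 libraries. Those of ZNF148, which binds GC-rich promoters, and of ZNF367 had 5.83 and 5.74. ZNF433-AS1, an antisense noncoding RNA, had 6.23, and ZNF512, whose peak is labelled as an intron of a noncoding transcript, had 5.87. Of these 10 genes, ZNF783, ZNF629 and ZNF367 were above 3 over IgG in 4 of 4 libraries at this peak.

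Peaks were spread unevenly over the genes. The median ZNF gene had 5 peaks summed over the 4 libraries, against 6 for other genes, and 22 ZNF genes had 1. The 10 genes with most peaks held 302 of the 1246 (24.2%). ZNF609 led with 10 and 5 peaks for MOLM13 and 15 and 15 for THP1. ZNF407 followed with 6, 9, 10 and 11, and ZNF131, a BTB domain transcription factor, with 5, 3, 12 and 14. ZNF516 had 5, 6, 10 and 12 peaks, ZNF493 had 4, 5, 11 and 12, and ZNF292 had 5, 4, 11 and 10. ZNF804A, a gene known from psychiatric genetics, had 5, 5, 7 and 5. Neighbouring peaks often touch, and once touching peaks were joined the ZNF genes had 202 and 174 regions for MOLM13 and 305 and 288 for THP1.

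**Figure D3:**
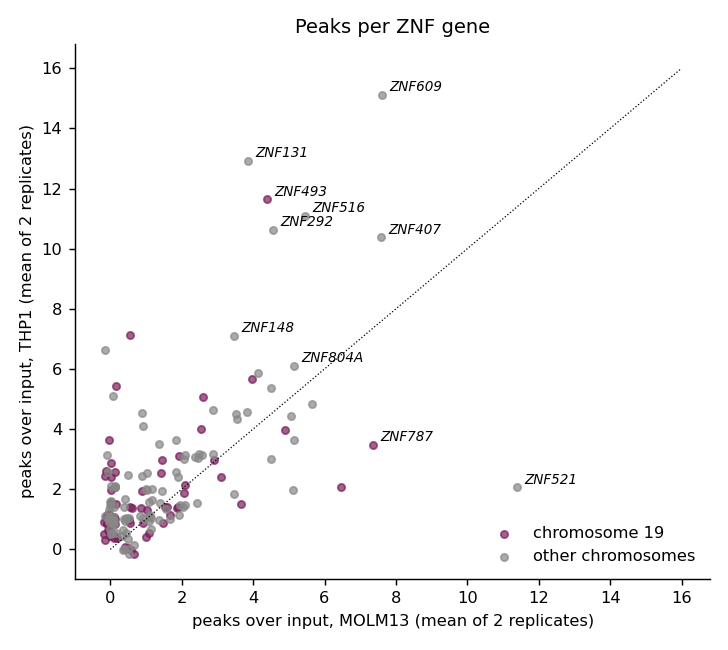
Peaks over input per ZNF gene, mean of the 2 replicates of MOLM13 (horizontal) and of THP1 (vertical), with genes on chromosome 19 in purple, points shifted by a small random amount to part equal values, and a dotted line of equal numbers. ZNF521 and ZNF787 lie to the right of the line, and ZNF609, ZNF131, ZNF493 and ZNF516 above it.

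Among the 10 genes with most peaks, ZNF148 included, 2 had more in MOLM13 than in THP1. ZNF783 tied with ZNF148 for the last place at 21 peaks, with 6 and 5 for MOLM13 and 6 and 4 for THP1. ZNF521, a co-factor of early haematopoietic progenitors, had 12 and 11 peaks in MOLM13, against 2 and 2 for THP1, and the replicates of the lines did not overlap. Its 3′ UTR peaks, with log2 folds of 3.77 and 3.71 over input and 2.79 and 2.35 over IgG, were found in MOLM13 only. A stretch of its intron around chr18:25340245-25340305 had peaks in all 4 libraries, with log2 folds of 5.24, 5.06, 5.23 and 4.93. ZNF787 had 9 and 6 peaks for MOLM13 and 4 and 3 for THP1.

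ZNF genes with peaks in 1 line only were more numerous in THP1. Counting any library, 60 ZNF genes had peaks only in THP1 and 9 only in MOLM13. This count was not taken for other genes, so it cannot be read as a trait of ZNF genes. THP1 had more peaks in general, 1.32 times those of MOLM13 on other genes and 1.62 times on ZNF genes. In THP1, 45 ZNF genes were targets without any peak in MOLM13, which is 26.6% of the 169, against 702 of 6383 other genes (11.0%). The reverse, targets of MOLM13 without any peak in THP1, was found for 0 ZNF genes and for 280 other genes (4.39%). When replicates were left out singly the reverse count ran from 0 to 7, the 7 without MOLM13 replicate 2, and the THP1 count from 48 to 55. Joining overlapping peaks of all libraries into sites gave 414 sites on ZNF genes. Of these, 115 (27.8%) were found in all 4 libraries, 88 (21.3%) in both THP1 replicates only and 16 (3.86%) in both MOLM13 replicates only. Among the sites of other genes these shares were 32.2%, 13.9% and 4.41%. Genes and sites share libraries, so these shares are given without a test.

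Most of these genes also had fewer clusters in MOLM13. They were chosen for peaks in THP1 and none in MOLM13, and a peak is itself a cluster. Fewer clusters in MOLM13 are thus in part built into the choice. The same counts were not taken for other genes chosen in this way. Of the 45 genes, 12 had no cluster in either MOLM13 library, 4 had clusters in 1 of them and 29 in both. In 32 of the 45 both MOLM13 libraries had fewer clusters on the gene than both THP1 libraries, and the median was 1 and 2 in MOLM13 against 10 and 8 in THP1. In 12 of the 45 genes both THP1 replicates had a peak that was also enriched over IgG. The levels of these RNAs in the cells were not analysed here, and the part they play in the count was not tested.

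Examples on chromosome 19 include ZNF611, ZNF91 and ZNF93. ZNF611 carried the highest reproducible 3′ UTR peak of a ZNF gene in THP1, at chr19:52703096-52703230 on the minus strand, with log2 folds of 6.70 and 7.53 over input and 4.13 and 6.53 over IgG. This is rank 50 of 1449 genes, and the gene had 6 and 11 clusters in THP1 and 0 and 0 in MOLM13. ZNF91, a repressor of SVA retrotransposons, had 33 and 22 clusters in THP1 and 0 and 1 in MOLM13. ZNF93, a repressor of LINE-1 elements, had 7 and 8 clusters in THP1 and 0 in each MOLM13 library. On chromosome 4, ZNF141 had 18 and 19 clusters in THP1, 0 in each MOLM13 library, and 5 peaks in each THP1 replicate with a highest log2 fold of 6.45 and 6.50.

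Other THP1 targets without MOLM13 peaks had clusters in both lines. ZNF37A had 13 and 12 clusters in THP1 and 13 and 16 in MOLM13, with a single peak in each THP1 replicate at log2 folds of 3.73 and 3.63. ZNF706 had 6 and 5 clusters in THP1 and 10 and 11 in MOLM13. The 3′ UTR peaks of ZNF264 (5.03 and 4.08), ZNF510 (3.63 and 3.96), ZNF281 (3.6 and 4.67) and ZNF687 (4.19 and 3.38) were reproducible in THP1. ZNF281 is a zinc finger factor of stem cells, and ZNF687 belongs with ZNF592 to the partners of ZMYND8. Of these 4 genes, ZNF264 had no cluster in MOLM13 and ZNF281 had 5 and 5 there against 7 and 8 in THP1.

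**Figure D4:**
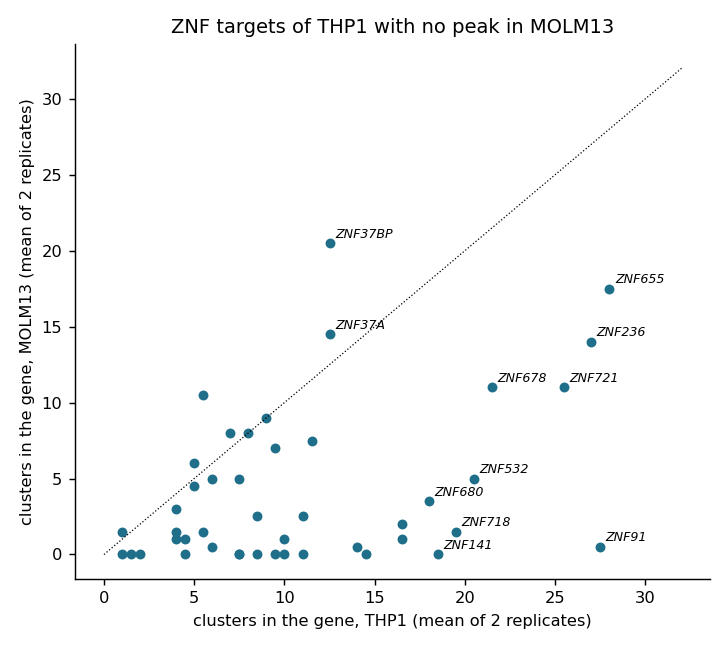
Clusters per gene, mean of the 2 replicates of THP1 (horizontal) and of MOLM13 (vertical), for the 45 ZNF genes that were targets in THP1 and had no peak over input in MOLM13, with a dotted line of equal numbers. Most points lie under the line, 12 genes lie at 0 in MOLM13, and ZNF37BP and ZNF37A lie above the line.

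Chromosome 19 held 69 of the 169 ZNF genes (40.8%) and 402 of their 1246 peaks (32.3%). Among other genes 5.98%, 5.92%, 4.02% and 4.10% of peaks lay on this chromosome. Of the 69 genes, 27 were MOLM13 targets (39.1%) and 52 were THP1 targets (75.4%). Of the 100 ZNF genes on other chromosomes, 57% were MOLM13 targets and 86% were THP1 targets, and of other genes with peaks 64.3% and 74.2%. These shares cover only genes with a peak in any library, and 60 of the 169 ZNF genes entered through THP1 only and 9 through MOLM13 only. The choice of genes thus leans towards THP1. Clusters, which need no peak, also differed between the lines. Of the chromosome 19 ZNF genes of the RefSeq table, 106 had clusters in both MOLM13 replicates and 157 had them in both THP1 replicates, and 42 of the 157 (26.8%) had none in MOLM13. For ZNF genes on other chromosomes 9 of 162 (5.56%) had none in MOLM13, and for other genes on chromosome 19 22 of 531 (4.14%). The opposite pattern, clusters in both MOLM13 replicates and none in THP1, was found for 5 of the 106 (4.72%). These counts include clusters that were not enriched, and the difference between the lines was not tested beyond the 2 libraries of each.

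On targets of both lines the peak numbers of the lines were closer. These genes were chosen for peaks in all 4 libraries, so this is in part built into the choice. The 81 ZNF genes had 445 peaks in MOLM13 and 538 in THP1, a ratio of 1.21, against 1.24 for the 3589 other genes that were targets of both. Of the 81, 43 had more peaks in THP1, 23 had more in MOLM13 and 15 had equal numbers, which is not given here for other genes. With 2 libraries against 2, the exact permutation test cannot separate the lines for any of the 4 differences between ZNF and other genes, since its smallest p is 0.333. For the 3′ UTR share the difference was -5.93 percentage points for MOLM13 (SD 2.11, n = 2), and THP1 had -2.01 (SD 1.64, n = 2), with p = 0.333 in the exact test and 0.667 after adjustment over 4 measures. The replicates of the lines did not overlap in this difference, with -7.42 and -4.43 against -3.17 and -0.85.

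Along the genes, intron peaks of ZNF genes lay nearer the 5′ end in MOLM13 than in THP1. Positions were taken for 181 of 205 and 155 of 179 ZNF intron peaks in MOLM13, and for 286 of 327 and 272 of 305 in THP1. For other genes they were taken for 7720 of 10276, 7370 of 9845, 11299 of 14746 and 10925 of 14203, so a larger part was left out. The values below cover those peaks only. The median position in percent of the gene length was 34.2% and 36.4% for MOLM13 and 45.4% and 43.7% for THP1, while other genes stood at 39.2%, 39.2%, 39.9% and 39.4%. Between the start and the midpoint of the gene lay 66.3% and 63.9% of ZNF intron peaks for MOLM13 and 56.6% and 59.2% for THP1, against 61.7%, 61.1%, 60.7% and 60.9% for other genes. MOLM13 differed from other genes by 3.67 percentage points (SD 1.27, n = 2), THP1 by -2.86 (SD 1.66, n = 2), with p = 0.333 in the exact two-sided permutation test, the smallest it can give. The Wilson intervals of the ZNF shares were wide, 59.1% to 72.8% in MOLM13 replicate 1 and 50.8% to 62.3% in THP1 replicate 1, and the lines do not hold the same ZNF genes.

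**Figure D5:**
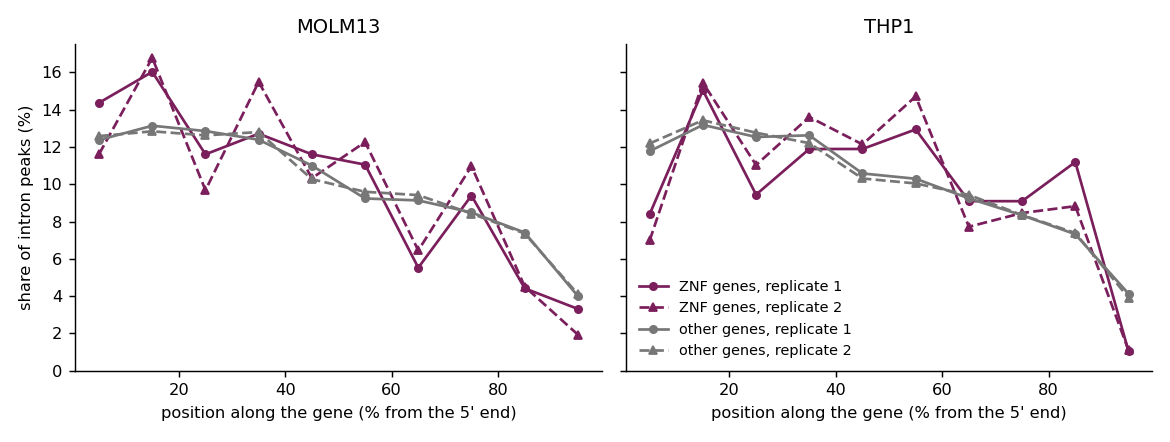
Share of intron peaks (%) in 10 equal bins of the gene from the 5′ end, for ZNF genes (purple) and other genes (grey) in MOLM13 (left) and THP1 (right), with solid lines for replicate 1 and dashed lines for replicate 2. The first bin held 8.39% and 6.99% of ZNF intron peaks in the THP1 replicates, against 11.8% and 12.2% for other genes. Only intron peaks given a position along the gene are counted.

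ZNF genes known for roles outside KRAB repression formed a list of 26. Of these, 13 were targets in MOLM13, 20 in THP1 and 13 in both, and 6 and 10 had a reproducible 3′ UTR peak. Of other genes with clusters in both replicates, 37.3% and 40.3% were targets and 12.7% in each line had a reproducible 3′ UTR peak, while the list also counts genes without clusters. By the lowest of the 4 libraries' highest log2 folds, the leading targets of both lines were ZNF592 (7.80), ZNF148 (5.85), ZNF516 (5.66) and ZNF609 (5.38). ZNF143, a factor of promoters and chromatin loops, had its highest log2 folds at 5.36, 3.48, 5.35 and 4.51, and ZNF76, its paralogue, at 3.89, 3.56, 3.81 and 4.93. ZNF207, a spindle assembly protein, stood at 4.64, 4.76, 5.73 and 5.07, and ZNF638, an RNA-binding protein, at 4.49, 4.73, 5.42 and 4.19. No peak was listed for ZNF384, ZNF423, ZNF462, ZNF598 and ZNF827.

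Partners that KRAB zinc finger proteins recruit were among the targets. Of 17 genes of this machinery, 11 were targets in MOLM13, 10 in THP1 and 10 in both, beside the 37.3% and 40.3% of other genes with clusters, and 3 and 2 had a reproducible 3′ UTR peak, beside 12.7%. DNMT1, the maintenance DNA methyltransferase, had its highest log2 folds at 7.14, 7.57, 6.89 and 7.13. PPHLN1 and TASOR, subunits of the HUSH complex, stood at 6.27, 7.02, 7.60 and 6.90 and at 4.01, 5.11, 6.85 and 5.79. HDAC1 stood at 6.46, 6.07, 6.75 and 6.06, and ATF7IP, the partner of the methyltransferase SETDB1, at 5.94, 6.59, 7.15 and 6.21. These are the highest folds over input in any region, and folds over IgG are not given for this list. DNMT1, PPHLN1 and TASOR had no 3′ UTR peak listed. HDAC1 had a 3′ UTR peak in MOLM13 replicate 1 only (3.01), and ATF7IP in THP1 replicate 2 only (3.96). CBX5, the heterochromatin protein HP1 alpha, had 3′ UTR peaks in every library, at 5.82, 4.84, 5.70 and 5.27. No peak was listed for TRIM28, the central co-repressor, nor for CBX3, MORC2 and MPHOSPH8.

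Related C2H2 families, chosen by symbol, were bound in part. The same 37.3% and 40.3% are shares of other genes with clusters in both replicates, while the families also count genes without them. In MOLM13 and THP1, 27 and 28 ZBTB genes, 7 and 8 ZSCAN genes and 4 and 4 ZKSCAN genes had clusters. Of genes named ZFP plus a number, 6 and 8 had them. Of 41 ZBTB genes, 13 were targets in MOLM13, 15 in THP1 and 13 in both, and 6 had a reproducible 3′ UTR peak in each line. Of 21 ZSCAN genes, 5 were targets in each line. The 7 ZKSCAN genes gave 2 MOLM13 targets and 3 THP1 targets, and of 18 genes named ZFP plus a number outside the ZFP36 family, 3 were targets in each line and 0 had a reproducible 3′ UTR peak. In these families the numbers of targets in MOLM13 and THP1 differed by at most 2.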

How the data were processed

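ZFP36L2 eCLIP libraries of MOLM13 and THP1 were taken as the authors deposited them. The deposited input tables give, per peak, the authors' log2 fold over input and the -log10 p, cut at 3 for both and capped at 400. The deposited IgG lists give the log2 fold and -log10 p over IgG for every cluster. Both carry hg38 coordinates. Per the submitters' processing notes, STAR 2.5.0c, cutadapt 1.14, edgeR and Picard 2.6.0 were used, without their roles. Peaks were called per immunoprecipitate. The sources used here do not give the caller, the test behind the p or how folds were scaled. The folds are the authors' own and were used within a list.

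Here, IgG values were joined by identical coordinates. Starts are printed from 1. ZNF peaks were compared with peaks of all other genes within each library, and the 4 differences were tested by exact sign flips over libraries and by exact permutation between lines (Python 3.11.15, scipy 1.17.1), after tests on simulated data. Clusters were assigned to RefSeq genes (GRCh38.p14) by position and strand; 151 of the 169 ZNF genes had a strand in the table used, so shares over genes with clusters leave out the others. The 68 peaks that name several genes, a ZNF gene among them, were left out of the main values. Named genes are, per line, the 10 with the highest reproducible 3′ UTR peak by the lower replicate. Also named, per line, are up to 5 with the highest such peak among genes with no peak in the other line. The rest are the 10 highest elsewhere, the 10 with most peaks, the 5 highest over IgG and up to 4 per list. Further genes were chosen after their values were seen. Members and lists were chosen with earlier results of these data known. Alternatives varied the fold limit, the IgG limit, the overlap, merging, rows naming several genes and each library.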

Additional observations from a re-analysis of the deposited data

Results flagged for a closer look

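The share of ZNF intron peaks between the start and the midpoint of the gene, minus that of other genes, was positive in both MOLM13 replicates (4.56 and 2.77 percentage points) and negative in both THP1 replicates (-4.03 and -1.69). The lines differed by 6.53 percentage points. Only intron peaks given a position along the gene are counted, and the part left out was larger for other genes than for ZNF genes. The difference could not reach significance with 2 libraries against 2 and counts as not tested. Among 5 measures compared in this way it was the only 1 in which every library of a line had the sign opposite to every library of the other, the other measures being the 3′ UTR share, the IgG share, the median fold and the overlap share. The lines do not hold the same ZNF genes, and the part of this in the difference was not tested.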

How the results depend on the processing

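The lower 3′ UTR share and the lower IgG share of ZNF peaks kept their direction under every alternative run, from -5.01 to -2.13 and from -5.67 to -0.89 percentage points. So did the median log2 fold, from -0.15 to -0.022. The overlap share turned to -2.84 where only peaks past 4 were kept, and leaving out libraries singly gave -0.63 to 0.82; the cause was not tested. Between the lines, the difference in overlap share (0.43) turned to -3.72 at a log2 fold of at least 4 and ran from -1.74 to 2.6 without single libraries. That in IgG share (0.42) ran from -1.67 to 2.5 without single libraries, and that in median fold (0.098) turned to -0.020 with touching peaks merged. Replicate numbers are shared by the lines but name no common source. With the replicate number as a block the 3′ UTR difference between lines was -3.92 (exact sign-flip p = 0.5, the smallest 2 pairs give), and the block changed no other call (0.42, 0.098 and 0.43). Requiring enrichment over IgG as well lowered the ZNF targets from 84 to 28 in MOLM13, from 138 to 73 in THP1 and from 81 to 24 in both. Targets among other genes fell from 4105 to 1723, from 4737 to 2976 and from 3589 to 1382. Settings for genes bound in 1 line were added after seeing the data. By peaks enriched over IgG alone, 23 genes, a newly defined set, were THP1 targets without such a peak in MOLM13. Of the 45 THP1 targets without a MOLM13 peak, 24 had clusters in all 4 libraries by the table of strands; 5 more with clusters in both MOLM13 libraries have no strand there. The reverse count of 0 became 0 to 7 without single libraries. At a log2 fold of at least 4, reproducible 3′ UTR peaks fell from 15 to 8 genes in MOLM13 and from 24 to 12 in THP1, since fewer peaks are counted. The planned description of KRAB boxes in the proteins was not run. With 2 libraries per line and 1 THP1 input, line, depth and input cannot be told apart.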
